A study of Rattus norvegicus with 8 samples.

Results

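The genes described here are *Cdkn1a*, *Gadd45a*, *Btg2*, *Ccng1*, *Mdm2*, *Fas* and *Bax*, target genes of the transcription factor p53 that act in growth arrest and cell death. Members were all probe sets of the deposited table annotated to exactly 1 of these 7 symbols. This gave 10 of 31042 probe sets, for 5 of the 7 genes. *Cdkn1a* had 2 probe sets, *Mdm2* 3, *Fas* 3, and *Gadd45a* and *Ccng1* 1 each. *Bax* was represented by a probe set that carries another symbol as well, and *Btg2* by none with its symbol, so no value is given for either gene. The mean level of 8 of the 10 probe sets was over the 40th percentile of all probe sets (4.87 on the log2 scale), and that of 2 *Fas* probe sets was under it.

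Transcripts were measured in mononuclear cells of peripheral blood (PBMCs), that is lymphocytes and monocytes, from 2 healthy male Brown Norway (BN) rats of about 180 days, named BN1 and BN2. From each donor 500000 cells per well were held for 6 h in medium containing 20% plasma, with 4 kinds of plasma, and 1 Affymetrix rat array was run for each of the 8 wells. The control plasma was a pool of 8 male Sprague-Dawley (SD) rats held in normoxia (21% oxygen), the 5% IH plasma a pool of 5, and the 10% IH plasma a pool of 3, where IH is intermittent hypoxia. SD pups had repeated short cycles at 5%, 10% or 21% oxygen over 1 h daily on postnatal days 2 to 6. They were bled as adults, at a younger age than the BN rats. Autologous BN plasma served as background. For the autologous arrays the labels are not clear on whose plasma met whose cells, since their source entries list BN1 and BN2 together. Control and autologous plasma also differed in strain, age and self origin, which cannot be told apart here. With 1 pool of each plasma, the 2 arrays of a group differ by reporter donor and carry no spread between plasma animals.

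The protein p53 is a transcription factor that is held low by the ubiquitin ligase *Mdm2* and accumulates upon DNA damage and other stress. It binds paired decamers in the DNA and raises genes that halt the cell cycle, repair DNA or start apoptosis, and *Mdm2* is itself such a target, which closes a feedback loop. Most of these genes also answer to other regulators. *Cdkn1a* is raised during monocyte differentiation and by cytokines, and *Gadd45a* by many kinds of stress. In resting blood lymphocytes, which rarely divide, growth arrest genes take part in quiescence.

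The promoters of the members for which the log2 ratios reached the study's criterion with the lowest p, *Cdkn1a* and *Gadd45a*, and of *Fas*, with the next lowest, are shown for reference, from 250 bases before to 50 bases after the start site in RefSeq annotation of build GRCr8. Capitals mark matches to the p53 decamer consensus and to the GC box GGGCGG, both searched on both strands. A TATA box spelled TATAAA was also searched and had no match in these 3 promoters. The *Cdkn1a* sequence is chr20:7150682-7150981 on the plus strand, and the start site used lies within the annotated gene (chr20:7150820-7161373). The *Gadd45a* sequence is chr4:97486750-97487049 on the minus strand, and its last 50 bases lie in the gene at chr4:97484497-97486799. The *Fas* sequence is chr1:241211905-241212204 on the plus strand, and its last 50 bases lie in the gene at chr1:241212155-241245774.
Cdkn1a: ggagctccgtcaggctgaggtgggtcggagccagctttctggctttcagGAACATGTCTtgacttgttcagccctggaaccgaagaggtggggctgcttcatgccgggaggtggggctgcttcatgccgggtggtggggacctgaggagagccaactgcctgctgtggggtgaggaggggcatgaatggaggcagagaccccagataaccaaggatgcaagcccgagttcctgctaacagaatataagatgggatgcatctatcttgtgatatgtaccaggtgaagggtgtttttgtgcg
Gadd45a: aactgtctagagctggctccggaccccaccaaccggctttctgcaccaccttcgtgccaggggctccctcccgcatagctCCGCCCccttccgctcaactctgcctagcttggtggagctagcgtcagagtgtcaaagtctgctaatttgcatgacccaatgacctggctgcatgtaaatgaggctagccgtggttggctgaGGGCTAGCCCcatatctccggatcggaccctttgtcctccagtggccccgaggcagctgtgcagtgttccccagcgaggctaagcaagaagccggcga
Fas: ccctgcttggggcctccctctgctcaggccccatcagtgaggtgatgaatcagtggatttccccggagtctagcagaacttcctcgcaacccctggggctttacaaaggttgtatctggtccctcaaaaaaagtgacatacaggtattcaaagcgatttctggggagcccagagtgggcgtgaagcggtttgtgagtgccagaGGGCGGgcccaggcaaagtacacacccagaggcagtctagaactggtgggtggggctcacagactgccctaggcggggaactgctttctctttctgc

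The *Cdkn1a* promoter holds the decamer GAACATGTCT from base -201 to -192, counted from the start site. In the *Gadd45a* promoter, GGGCTAGCCC lies at -48 to -39 and a GC box, read on the opposite strand, at -170 to -165. The *Fas* promoter holds a GC box at -47 to -42 and no match to the decamer within this window. A promoter of the same length was found for 6 of the 7 members, and 3 of the 6, those of *Cdkn1a*, *Gadd45a* and *Ccng1*, hold a decamer, against 7.98% of all 33469 promoters of the table. The GC box is in 33.1% of all promoters and TATAAA in 14.2%. The members were chosen as p53 targets, and a match describes letters in a window, not a bound site.

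The study's criterion was met when the log2 ratio of group means was over 0.263 in size (1.2-fold) and the Rank Product permutation p, which ranks each probe set within every between-array ratio, was under 0.05 in that direction. Genes below are called higher or lower on this criterion. With 1 array left out, a group holds 1 array and fewer ratios are ranked. In each comparison with an IH plasma the criterion then called more of all probe sets. A call kept or gained that way therefore met a looser criterion. Beside it, limma gave standard errors, 95% intervals and p-values adjusted over all 31042 probe sets by the Benjamini-Hochberg method. Array medians were 5.53 to 5.56, and the 2 arrays of a group correlated at 0.9955 to 0.9973 over all probe sets. Levels are given in log2 units, and those of different probe sets cannot be set against each other. The comparisons of 5% IH and 10% IH plasma with control share the control arrays, and each is given by its own values.

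With control plasma, *Cdkn1a* and 2 of 3 *Fas* probe sets were higher and *Gadd45a* lower than with autologous plasma. The *Cdkn1a* probe set 1387391_at was higher again with both IH plasmas, and *Gadd45a* was higher with 10% IH plasma and not called with 5% IH plasma. *Ccng1* and 2 of 3 *Mdm2* probe sets were called in none of the 4 comparisons.

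*Cdkn1a* encodes p21, an inhibitor of cyclin-dependent kinases that stops cells at the entry into S phase. On probe set 1387391_at the level was 4.04 in BN1 and 4.54 in BN2 cells with autologous plasma, and 5.43 and 5.87 with control plasma. It was 6.22 and 6.39 with 5% IH plasma, and 5.90 and 6.23 with 10% IH plasma. Levels of the autologous group lay under all others, those of both IH groups lay above the control group, and the IH groups overlapped. With 5% IH plasma the level was 1.58-fold that with control plasma (a log2 ratio of 0.66 with a standard error of 0.199, 2 arrays per group), 0.79 in BN1 and 0.53 in BN2 cells, with a permutation p = 1.90e-05. With 10% IH plasma it was 1.33-fold that with control (log2 ratio 0.41, 0.46 in BN1 and 0.36 in BN2, permutation p = 0.00223). Without the BN1 control array the 10% IH ratio was 0.19, and without the BN2 array of 10% IH 0.24, both under the fold threshold, whereas the 5% IH ratio was 0.44 to 0.87 without any 1 array and met the criterion each time. In limma the adjusted p was 1.00 with 5% IH and 0.920 with 10% IH plasma.

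The other *Cdkn1a* probe set, 1388674_at, had a smaller range over the 8 arrays (0.98 against 2.36). Its level was 5.93 and 5.82 in BN1 and BN2 cells with autologous plasma, 6.33 and 6.30 with control, 6.43 and 6.80 with 5% IH, and 6.19 and 6.35 with 10% IH plasma. It differed from 1387391_at with 10% IH plasma, where its levels overlapped those of the control group (log2 ratio -0.05, 95% interval -0.34 to 0.25), and it was not called. With 5% IH plasma it was higher by 0.30 (standard error 0.129, permutation p = 0.00992), but the ratio was 0.10 in BN1 and 0.50 in BN2 cells, and without the BN2 array of 5% IH it was 0.11. The probe sets correlated at r = 0.85 over the 8 arrays, a description only, as these arrays share donors and plasmas. The value of *Cdkn1a* with 10% IH plasma thus differed between the 2 probe sets.

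*Gadd45a*, a stress-induced protein that binds p21 and the replication clamp and can halt the cycle before mitosis, had 1 probe set. Its level was 8.90 in BN1 and 9.09 in BN2 cells with autologous plasma, 8.11 and 8.08 with control, 8.32 and 8.11 with 5% IH, and 9.02 and 8.61 with 10% IH plasma. Control and 5% IH arrays overlapped, while both 10% IH arrays were above these 4 arrays. The BN1 array of 10% IH lay between the autologous arrays and the BN2 array below both. With 10% IH plasma the level was 1.65-fold that with control (log2 ratio 0.72, standard error 0.142, 0.90 in BN1 and 0.54 in BN2 cells), with a permutation p = 3.41e-05. It met the criterion without any 1 of the 4 arrays, at 0.52 to 0.92. With 5% IH plasma the log2 ratio was 0.12 (95% interval -0.20 to 0.44) and was not called. In limma the unadjusted p was 7.35e-04 and the adjusted p 0.920 with 10% IH plasma.

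*Ccng1*, cyclin G1, which recruits a phosphatase to the Mdm2 protein, was level over the 8 arrays, from 8.78 to 9.01. Its log2 ratio to control was 0.09 with 5% IH plasma (95% interval -0.13 to 0.32) and 0.08 with 10% IH plasma (-0.15 to 0.30). These intervals leave room for a change of the size of the fold threshold.

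The 3 probe sets of *Mdm2* did not give the same values. On 1383288_at, with the smallest range of all member probe sets, levels were 9.09 to 9.21 on the 8 arrays, and the log2 ratio to control was -0.01 with either IH plasma (95% interval -0.20 to 0.18). On 1383485_at the level was 6.27 and 6.27 in BN1 and BN2 cells with control plasma, 6.41 and 6.36 with 5% IH, and 6.74 and 6.46 with 10% IH plasma. Both 10% IH arrays were above the control arrays, but the autologous arrays, at 5.97 and 6.51, lay on both sides of the control level. The log2 ratio of 10% IH to control was 0.34 (standard error 0.166, 0.48 in BN1 and 0.19 in BN2 cells, permutation p = 0.0157), and it was 0.20, under the fold threshold, without the BN1 array of 10% IH. On 1384427_at the ratio was 0.17, with 0.36 in BN1 and -0.02 in BN2 cells, and was not called, though it was 0.34 and called without the BN2 array of 10% IH. The last 2 probe sets correlated at r = 0.93 over the 8 arrays and with 1383288_at at -0.15 and -0.31, as a description. No *Mdm2* probe set was called with 5% IH plasma.

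*Fas*, the death receptor that starts apoptosis when bound by Fas ligand, also had 3 probe sets that differed. The suffix s_at marks sets whose probes match several transcripts. On 1384842_s_at the level was 4.88 in BN1 and 5.11 in BN2 cells with autologous plasma, 6.17 and 6.05 with control, 6.42 and 6.23 with 5% IH, and 6.24 and 6.00 with 10% IH plasma. The 3 SD plasmas lay within 6.00 to 6.42, all above the autologous arrays. The log2 ratio to control was 0.22 with 5% IH (permutation p = 0.0290) and 0.02 with 10% IH plasma, both under the fold threshold, and the first met the criterion when the BN2 array of 5% IH (0.31) or the BN1 control array (0.28) was left out.

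The other *Fas* probe sets were dim, with mean levels at the 7.4th and 24.5th percentile of all probe sets. On 1369900_at the level was 2.68 and 2.57 with control, 2.90 and 2.85 with 5% IH, and 3.01 and 2.82 with 10% IH plasma. It was called higher with 10% IH plasma, by 0.29 (standard error 0.0977, permutation p = 0.0252), and not with 5% IH plasma, at 0.25, so that similar ratios lay on opposite sides of the threshold. The 10% IH ratio was under the threshold without the BN1 array of 10% IH (0.19) or the BN2 control array (0.23), and the 5% IH ratio was over it, at 0.28, without the BN2 array of 5% IH and, at 0.31, without the BN1 control array. On 1397221_s_at the level was 3.93 and 4.32 with control, 4.11 and 3.78 with 5% IH, and 3.88 and 3.69 with 10% IH plasma, and it was called lower with 10% IH plasma (log2 ratio -0.34, standard error 0.154, permutation p = 0.00805). That call rested on BN2 cells, with -0.63 there and -0.05 in BN1 cells, and leaving out the BN2 array of 10% IH gave -0.25 and the BN2 control array -0.15. With 5% IH plasma its donors had opposite signs, 0.18 in BN1 and -0.54 in BN2 cells, and the ratio of -0.18 became -0.35 without the BN1 array of 5% IH and -0.37 without the BN1 control array, called lower in both. *Fas* therefore had a probe set called higher and a probe set called lower with 10% IH plasma.

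**Figure D1:**
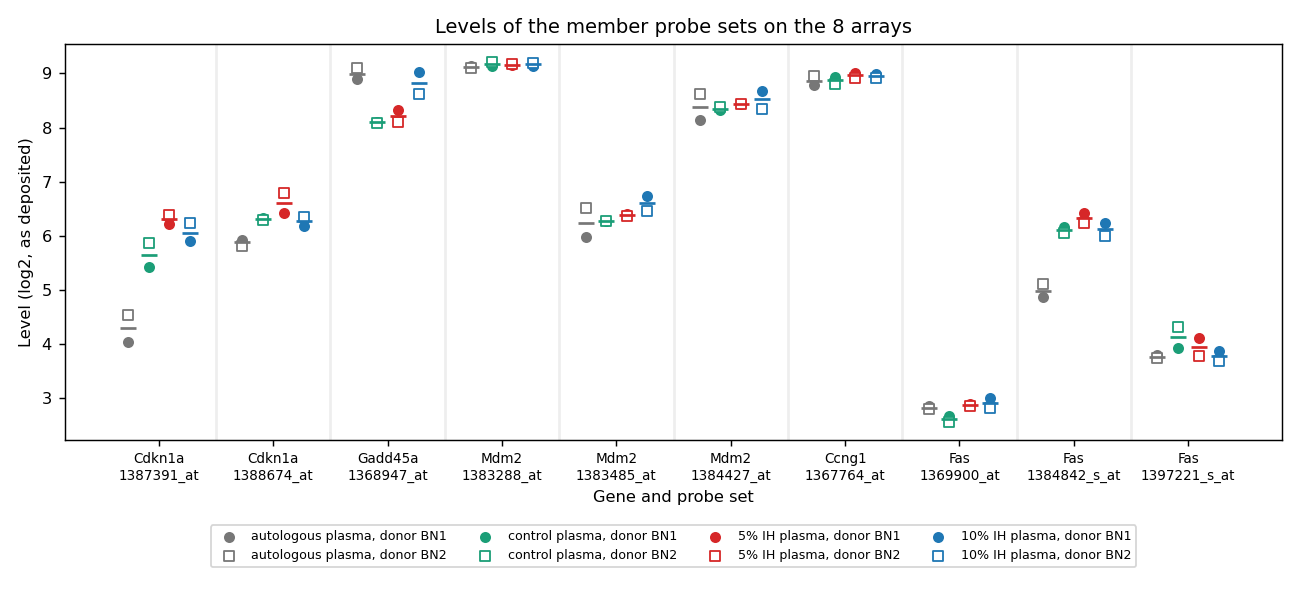
Level of each member probe set (y axis, log2 as deposited) on the 8 arrays, by gene and probe set (x axis), with filled circles for BN1, open squares for BN2, a colour for each plasma and a short line at each group mean. *Cdkn1a* 1387391_at and *Fas* 1384842_s_at were lowest with autologous plasma (means 4.29 and 4.99), and *Gadd45a* was lowest with control plasma (mean 8.10).

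Over the members, 2 of 10 probe sets were called higher with 5% IH plasma against control and 0 lower, where 1.58% of all probe sets were called higher and 1.52% lower. With 10% IH plasma 4 were called higher and 1 lower, against 3.58% and 3.37% of all probe sets. The 2 calls with 5% IH plasma were both of *Cdkn1a*, and the 5 with 10% IH plasma were of *Gadd45a*, *Cdkn1a*, *Mdm2* and 2 of *Fas*. Probe sets of 1 gene are not independent, and 3 of the 5 were of *Mdm2* and *Fas*, whose other probe sets were not called higher. The median log2 ratio of the 10 was 0.12 with both plasmas, against -0.00127 and -5.53e-04 over all probe sets. Arrays of the 2 groups did not overlap in 6 of 10 members with 5% IH and in 5 of 10 with 10% IH plasma, and the shares of all probe sets without overlap were 13.3% higher and 13.0% lower with 5% IH and 17.0% and 16.9% with 10% IH plasma. The counts of members called with either plasma changed with some arrays left out, and more of all probe sets were then called. In limma 0 members, and 0% of all probe sets higher or lower, reached an adjusted p under 0.05 with either plasma, while 3 members with 5% IH and 2 with 10% IH plasma had an unadjusted p under 0.05, as did 790 and 1612 of all probe sets.

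Compared directly, *Gadd45a* was lower with 5% IH than with 10% IH plasma (log2 ratio -0.60, standard error 0.142), by 0.70 in BN1 and 0.50 in BN2 cells on the log2 scale, with a permutation p = 2.57e-04. The call was kept without any 1 array, at -0.80 to -0.40. *Cdkn1a* was higher with 5% IH plasma on 1388674_at (0.34, standard error 0.129, permutation p = 0.0118), and was under the threshold when the BN2 array of 5% IH (0.16) or the BN1 array of 10% IH (0.26) was left out. On 1387391_at the ratio was 0.24, not called, and 0.33 without the BN1 array of 5% IH or 0.41 without the BN2 array of 10% IH, where it was called. Of the 10 members, 1 was called higher and 1 lower, against 3.28% and 3.06% of all probe sets, and groups did not overlap in 3, against 16.5% higher and 15.9% lower of all. The count of calls rose without either array of 5% IH and without the BN2 array of 10% IH, where more of all probe sets were called as well. The median ratio of the members was 0.01 and that of all probe sets -0.00219. *Mdm2* had ratios of 0.00, -0.22 and -0.08, *Ccng1* of 0.02 (95% interval -0.20 to 0.24) and *Fas* of -0.04, 0.20 and 0.16, none of them called with all 4 arrays. With 1 array left out, *Fas* 1384842_s_at was called at 0.30 (BN2 array of 5% IH) and 0.32 (BN1 array of 10% IH), *Fas* 1397221_s_at at 0.33 (BN2 array of 5% IH) and *Mdm2* 1383485_at at -0.36 (BN2 array of 10% IH). In limma 0 members and 0% of all probe sets in either direction had an adjusted p under 0.05 (lowest 0.981), against 2 members and 1452 probe sets at an unadjusted p under 0.05.

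**Figure D2:**
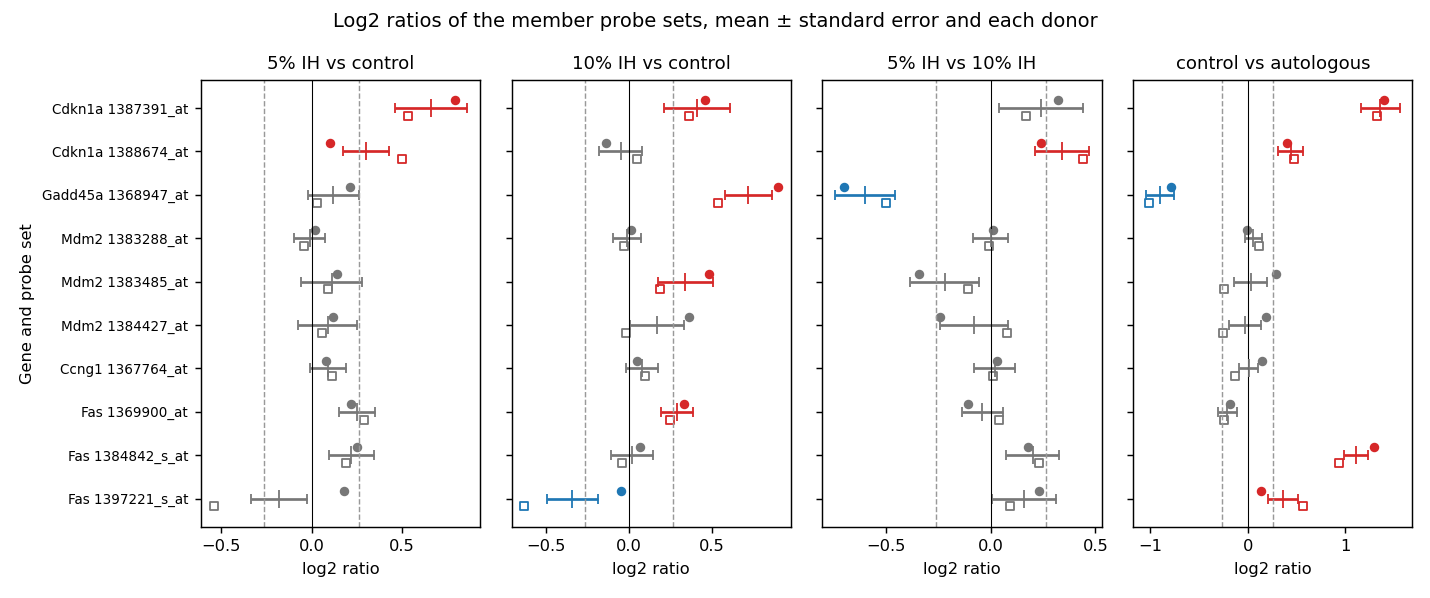
Log2 ratio (x axis) of each member probe set (y axis) in the 4 comparisons, where the bar is the ratio of group means ± limma's standard error, filled circles are BN1 and open squares BN2, and dashed lines lie at ±0.263. Red marks probe sets called higher, blue lower and grey not called, and the x axes differ between panels. *Gadd45a* is blue at -0.60 for 5% IH against 10% IH and at -0.90 for control against autologous plasma, and red at 0.72 for 10% IH against control.

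Against the autologous background, control plasma gave larger ratios. *Cdkn1a* was higher on both probe sets, 2.57-fold on 1387391_at (log2 ratio 1.36, 1.40 in BN1 and 1.33 in BN2, limma's adjusted p = 0.00930) and 1.36-fold on 1388674_at (0.44, adjusted p = 0.212, permutation p = 0.00821). *Fas* was 2.16-fold higher on 1384842_s_at (1.11, 1.29 in BN1 and 0.94 in BN2, limma's adjusted p = 0.00186). *Gadd45a* was lower (log2 ratio -0.90, -0.78 in BN1 and -1.01 in BN2, limma's adjusted p = 0.0142), so that autologous levels were 1.86-fold those with control plasma. These 4 calls by the criterion were kept without any 1 array. *Fas* 1397221_s_at was called higher too (0.36, 0.14 in BN1 and 0.57 in BN2, permutation p = 0.0224), but was not called without the BN2 control array (0.16) or the BN2 autologous array (0.33). The ratios of *Mdm2* were 0.06, 0.03 and -0.03, that of *Ccng1* was 0.01 (95% interval -0.21 to 0.23) and that of *Fas* 1369900_at -0.21, none of them called.

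In all, 4 of 10 members were called higher and 1 lower with control against autologous plasma, where 5.33% and 5.15% of all probe sets were. Groups did not overlap in 6, against 17.2% higher and 21.9% lower over all probe sets, and the median ratio was 0.04, against -0.0133. In limma 3 of the 10 had an adjusted p under 0.05, *Cdkn1a* 1387391_at and *Fas* 1384842_s_at higher and *Gadd45a* lower, against 1.48% of all probe sets higher and 0.293% lower. That count was lower when any array of either group was left out, and fewer of all probe sets then reached it as well. Set against autologous plasma, with no test, *Cdkn1a* 1387391_at had ratios of 2.02 with 5% IH and 1.78 with 10% IH plasma. *Gadd45a* had -0.78 with 5% IH plasma and -0.18 with 10% IH plasma, where BN1 gave 0.12 and BN2 -0.47.

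Monocyte marker genes moved with these groups. Of 10 on the list, 9 were measured, and their mean level was 5.88 to 6.30 on the autologous arrays, 8.01 to 8.18 with control, 8.18 to 8.38 with 5% IH and 8.23 on both arrays with 10% IH plasma. Control plasma against autologous gave 7 of the 9 higher and 0 lower (median 2.08), and 3 were higher with 5% IH and 1 with 10% IH plasma against control. *Cdkn1a* 1387391_at and *Fas* 1384842_s_at moved the same way as this list from autologous to control plasma, and *Gadd45a* the other way. T cell markers, 8 of 9 measured, had a mean level of 9.84 to 9.99 on all arrays, with 1 lower with 10% IH plasma than with control and 1 lower in control than in autologous. B cell markers, 5 of 8 measured, were at 7.77 to 8.07, 8.41 to 8.47, 8.41 to 8.42 and 8.11 to 8.30 in the autologous, control, 5% IH and 10% IH groups, with 2 of 5 higher in control than in autologous and 2 of 5 lower with 10% IH plasma than with control. Neutrophil markers, 6 of 8 measured, were at 4.35 to 4.93 over all arrays, with 3 of 6 higher in control than in autologous. The part of these cells in the values of the members was not tested, and in RNA of mixed cells fewer cells of a type and less RNA per cell cannot be told apart. Natural killer cell markers, 7 of 7 measured, were at 6.92 to 7.14, with 1 lower in control than in autologous. Platelet markers, 5 of 6 measured, were at 9.12 to 9.49, with 1 lower with 5% IH than with 10% IH plasma. Erythroid markers, 4 of 6 measured, were at 9.62 to 9.86, with 1 higher with 10% IH plasma than with control and 1 lower in control than in autologous. In the direct comparison of 5% IH with 10% IH plasma, 2 monocyte markers were higher and 1 lower, and 1 B cell marker was higher. These marker counts stand beside the shares of all probe sets called in each comparison, given above with the members.

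The probe sets with the pattern most like each member's, among 2630 with 1 symbol, a mean level over the 40th percentile and a range of at least 0.5, are given by Pearson's r over the 8 arrays, as a description. *Cdkn1a* 1387391_at was most like *Rassf4* (0.987), the adhesion receptor *Cd44* (0.986) and the nucleotide receptor *P2ry2* (0.986), and 130 probe sets had r over 0.95 with it. The other *Cdkn1a* probe set was most like *Ifit2*, an interferon-induced gene (0.976), the amino acid transporter *Slc7a5* (0.963) and *Marcks* (0.961). *Gadd45a* was most like the carbonic anhydrase *Car2* (0.988), the ceramidase *Acer3* (0.981) and *Sec22a* (0.981). *Fas* 1384842_s_at was most like the interferon gamma receptor chain *Ifngr2* (0.990), *Gpr137b* (0.989) and the prostaglandin receptor *Ptger2* (0.987), with 152 over 0.95. *Mdm2* 1383485_at was most like *Gga2* (0.987) and 1384427_at most like *Pkn2* (0.991), both followed by others over 0.98 or at 0.980. The steady probe sets had lower values, at most 0.867 for *Mdm2* 1383288_at and 0.915 for *Ccng1*. Dim *Fas* 1369900_at was most like *Gadd45g* (0.942), and 1397221_s_at most like *Slc2a9* (0.919).

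Other genes of the pathway were taken as 6 lists, with the brightest probe set of each gene. Against control, 1.58% of all probe sets were called higher and 1.52% lower with 5% IH plasma, and 3.58% and 3.37% with 10% IH plasma. The shares were 3.28% and 3.06% for 5% IH to 10% IH, and 5.33% and 5.15% for control to autologous plasma. Several of the list counts below are near these shares. Of 62 other p53 target genes 54 were measured, and 2 were higher and 0 lower with 5% IH plasma, 1 higher and 1 lower with 10% IH plasma. The median log2 ratio of this list was 0.00262 and -0.00943, next to the medians of all probe sets. *Dram1*, a lysosomal protein of autophagy, was higher with 5% IH plasma (6.86 and 6.88 with control, 7.09 and 7.24 with 5% IH, log2 ratio 0.30), as was *Sod2*, the mitochondrial superoxide dismutase (0.28). With 10% IH plasma *Txnip*, an inhibitor of thioredoxin, was higher (0.31) and the cyclin *Ccnd2* lower (-0.49, -0.79 in BN1 and -0.20 in BN2). In the direct comparison 3 were higher with 5% IH and 0 lower, namely *Ccnd2* (0.40), *Rps27l*, a ribosomal protein paralogue (0.32), and *Dram1* (0.28).

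Of 25 genes on the list of p53 regulators 22 were measured. None met the criterion with either IH plasma against control or with control against autologous plasma. *Mdm4*, the partner of *Mdm2* in holding p53 inactive, was at 0.04 with 5% IH and at 0.10 with 10% IH plasma as log2 ratios to control, neither called. *Twist1*, a dim probe set at 2.99 to 3.76, was lower with 5% IH than with 10% IH plasma (-0.43), and was the 1 call on this list in that comparison.

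Of 31 growth arrest and cell cycle inhibitor genes 30 were measured, and 0 were called with 5% IH plasma, while 2 were higher and 0 lower with 10% IH plasma. The 2 were *Ddit4*, an inhibitor of mTOR signalling induced by stress and glucocorticoids, and *Gadd45g*, a relative of *Gadd45a*. *Ddit4* had levels of 9.45 and 9.96 with autologous plasma, 8.92 and 8.95 with control, 9.11 and 9.05 with 5% IH, and 9.47 and 9.32 with 10% IH plasma. Its order of group means was that of *Gadd45a*, with control lowest, then 5% IH, 10% IH and autologous, and its ratios were 0.46 for 10% IH to control, -0.31 for 5% IH to 10% IH and -0.77 for control to autologous plasma, each called. *Gadd45g* was higher with 10% IH plasma by 0.37 and had a ratio of 0.26 with 5% IH plasma, not called. The third gene of that family, *Gadd45b*, had -0.03 and -0.18, neither called. Among other relatives, *Btg1* had -0.03 with both plasmas, *Ccng2* 0.01 and -0.04, and the kinase inhibitor *Cdkn1b* -0.05 and -0.08, none of them called.

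Of 22 cyclins, kinases and replication genes of G1 and S phase 21 were measured. None was called with 5% IH plasma, and with 10% IH plasma 1 was higher, *Ccnd3* (0.29), and 2 were lower, *Ccnd2* and the transcription factor *E2f2* (-0.34, with -0.60 in BN1 and -0.07 in BN2). Of 24 proliferation genes 22 were measured. With 5% IH plasma 2 were higher, *Cenpf* (0.32) and *Top2a* (0.27), and with 10% IH plasma 2 were lower, *Cdk1* (-0.39) and *Mki67* (-0.39). These 4 probe sets were at 3.84 to 5.58, near or under the 40th percentile, and in *Cenpf*, *Top2a* and *Cdk1* 1 donor carried the ratio (0.06 in BN1 and 0.57 in BN2 for *Cenpf*, 0.06 and 0.48 for *Top2a*, -0.06 and -0.73 for *Cdk1*).

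Of 31 genes of the BCL2 family and death receptor pathway 28 were measured, and 1 was higher with 5% IH plasma and 3 with 10% IH plasma, with 0 lower in both. With 5% IH plasma it was *Bcl2a1*, an inhibitor of apoptosis in myeloid cells, at 8.39 and 8.57 with control and above both with 5% IH plasma (log2 ratio 0.43), and at 6.47 and 6.82 with autologous plasma. With 10% IH plasma these were the caspase inhibitor *Xiap* (0.41), the apoptosis activator *Bcl2l11* (0.38) and the apoptosis inhibitor *Bcl2* (0.33). *Bcl2l11* had the order of groups of *Gadd45a* as well. Its log2 ratio was -0.30 for 5% IH to 10% IH and -0.60 for control to autologous plasma, both called. From 5% IH to 10% IH plasma 1 gene of this list was called higher, *Bcl2a1* (0.47), and 2 lower, *Xiap* (-0.51) and *Bcl2l11*. How many of all probe sets had the order of *Gadd45a* was not counted. Among the other p53 targets, *Txnip* had this order too. Its levels were 11.28 and 11.31 with control and 11.38 on both arrays with 5% IH plasma. They were 11.66 and 11.54 with 10% IH, and 11.66 and 12.03 with autologous plasma. *Bak1*, which acts with *Bax* on the mitochondrial membrane, had -0.09 and -0.12, and *Faslg*, the ligand of *Fas*, 0.03 and 0.19, for 5% IH and 10% IH to control, none called.

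Control against autologous plasma gave 8 higher and 3 lower of the 54 other p53 targets, led by *Ninj1*, a membrane protein of cell adhesion and lysis (1.68), *Dram1* (0.71), *Ccnd2* (0.69) and *Klf4* (0.63). It gave 2 higher and 1 lower of the growth arrest genes (*Gas7* 0.74, *Rb1* 0.27 and *Ddit4*), 2 and 2 of the G1 and S phase genes, 2 and 0 of the proliferation genes, and 4 and 1 of the BCL2 family and death receptor list, led by *Bcl2a1* (1.84). The medians of the 6 lists in the 4 comparisons lay between -0.0722 and 0.0625.

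**Figure D3:**
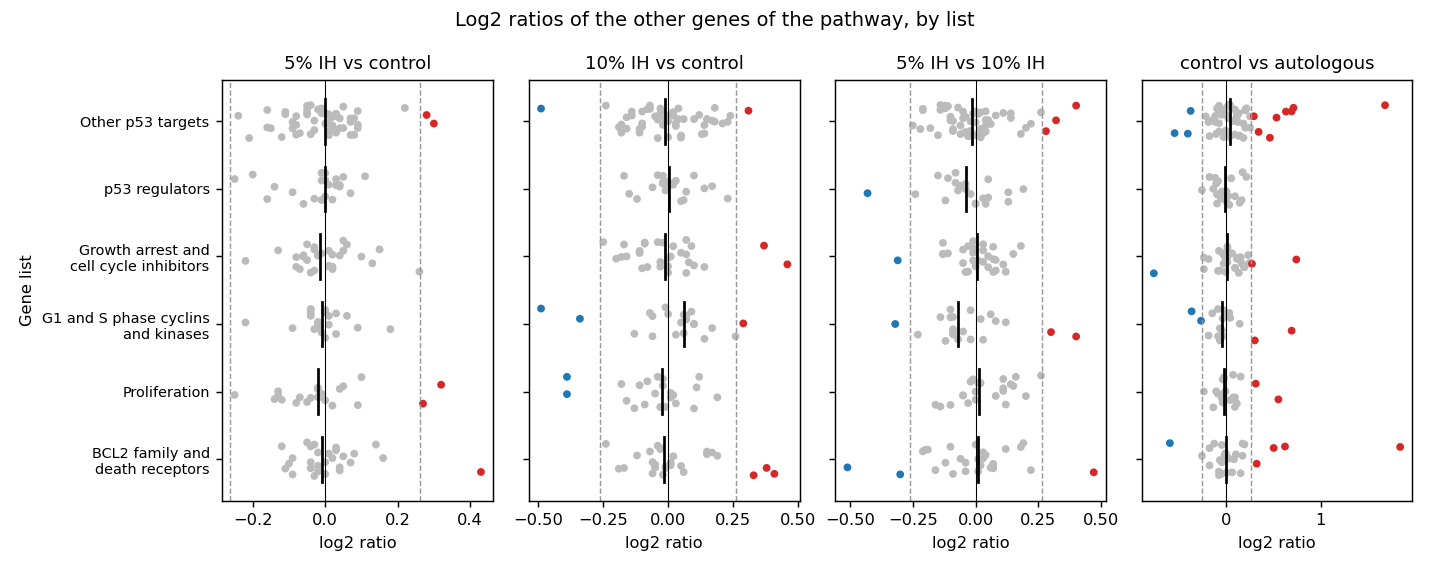
Log2 ratio (x axis) of each measured gene of the 6 pathway lists (y axis) in the 4 comparisons, 1 point per gene, with a black bar at the list's median and dashed lines at ±0.263. Red and blue points were called higher and lower and grey points not called. List medians lie near 0, from -0.0722 to 0.0625, and the x axes differ between panels.

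**Figure D4:**
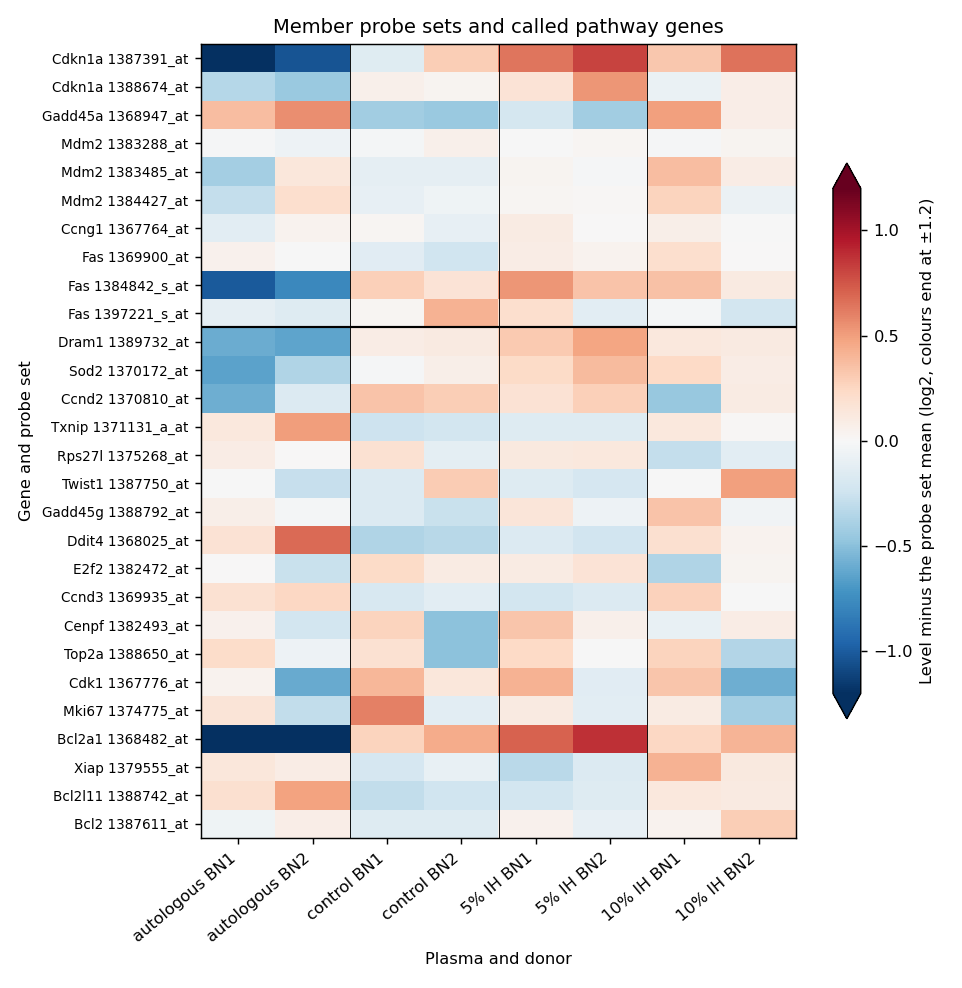
Level of each probe set minus its own mean over the 8 arrays (colour, log2, colours end at ±1.2) for the 10 member probe sets above the line and, below it, 18 list genes called in an IH comparison; columns are arrays by plasma and donor. *Gadd45a*, *Ddit4*, *Bcl2l11* and *Txnip* are among those lowest with control plasma. *Cdkn1a* 1387391_at, *Fas* 1384842_s_at and *Bcl2a1* are among those lowest with autologous plasma.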

How the data were processed

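Values were read from the series table of 8 arrays (4 plasmas, 2 donors). The authors made these log2 values before they were deposited, with Robust Multichip Analysis after Affymetrix Expression Console: background correction, quantile normalization between arrays and a summary of each set's probes. The submitters' processing notes also name Partek. The table holds 31042 probe sets from 1.66 to 14.3 with 0 missing, of which 20826 carry 1 gene symbol, 436 several and 9780 none in the platform annotation. No further scaling was applied. The table gives no detection call, and the number of arrays limits the precision.

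The criterion was computed in Python 3.11.15 with a script that reimplements the Rank Product, since the RankProd package was not at hand. It used the 4 between-array ratios of a comparison, 100 permutations of values within arrays and a 1-sided p. In R 4.3.3, limma 3.58.1 was run on 4 groups and 8 arrays without a donor term, with adjustment over all probe sets. Both were tested on simulated data. The pairing of arrays by donor comes from the labels: deviations from group means correlated between same-donor arrays at 0.240, 0.0590 and 0.165 among the SD plasmas, and at -0.00387, -0.0833 and -0.171 with the autologous arrays. No p-value reflects the spread between plasma animals.

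The members and lists were chosen with earlier results of these data known. Named genes were all member probe sets, up to 4 genes of each list and comparison with the largest ratio among those called with 1 sign in both donors, the closest relatives of the members, *Mdm4*, and the 3 most similar probe sets of each member. A gene of a list is its brightest probe set with 1 symbol. Members' promoters came from RefSeq on GRCr8, with no match for *Bax*. The array's probe sequences and the genome build of its probes are not used here.

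Other settings tried were the share of false predictions, a 2-sided p, within-donor ratios, a 1.5-fold threshold, the dimmest 40% of probe sets left out, quantile normalization or median centring again, averaging all probe sets per gene, other limma fits and each array left out.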

Additional observations from a re-analysis of the deposited data

Results flagged for a closer look

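Both results below differ between the IH plasmas by the direct comparison of 5% IH with 10% IH plasma. *Gadd45a* had a log2 ratio of -0.60, lower with 5% IH plasma in both donors. *Cdkn1a* 1388674_at had a log2 ratio of 0.34, higher with 5% IH plasma in both donors, whereas 1387391_at of the same gene, at 0.24, was not called. Groups of 2 arrays are too small for a check of single outlying arrays.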

How the results depend on the processing

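With all arrays, 2, 5, 2 and 5 of 10 members were called for 5% IH to control, 10% IH to control, 5% IH to 10% IH and control to autologous plasma. With the share of false predictions in place of the p, 1, 0, 0 and 2 were called, and with a 1.5-fold threshold 1, 1, 1 and 3. With averaging all probe sets per gene, the members were 5 genes, of which 1, 1, 2 and 3 were called. Averaged *Cdkn1a* was called for 5% IH to control (0.48) and for 5% IH to 10% IH plasma (0.29). With the dimmest 40% left out 3 were called for 10% IH to control, since the *Fas* probe sets 1369900_at and 1397221_s_at were not tested. Leaving out each array gave 2 to 5, 3 to 4, 2 to 4 and 4 to 5 called, and 1 to 3 members by limma's adjusted p for control to autologous plasma. The averaged probe sets of *Fas* gave -0.01 for 10% IH to control and 0.42 for control to autologous plasma, where 1369900_at had 0.29 and -0.21. Other ratios that were not called changed sign too, such as *Cdkn1a* 1388674_at with 10% IH plasma, -0.05 alone and 0.18 averaged. In the paired analysis by donor (replicate block), 2, 5, 2 and 5 members were called by the criterion and 0, 0, 0 and 3 by limma, which changed no call. Quantile normalization or median centring changed none of 40 member calls, and a 2-sided p lost 1, *Fas* 1369900_at with 10% IH plasma.

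Over all probe sets the criterion called 963, 2156, 1966 and 3251. The share of false predictions gave 14, 4, 6 and 179, a 1.5-fold threshold 19, 88, 73 and 576, and a 2-sided p 2091 in the last. These were out of 31042 probe sets. Leaving out dim probe sets gave 238, 1331, 1159 and 2181 of 18625 tested. The mean per gene gave 688, 1332, 1222 and 2300 of 24433 tested. Leaving out an array gave 1939 to 2284, 2747 to 3417 and 2690 to 3326 in the first 3. In limma, leaving out the BN2 array of 10% IH gave 46 for 10% IH to control and 57 for 5% IH to 10% IH plasma, against 0. The causes were not tested. The number of arrays limits the precision, and the dim *Fas* probe sets limit what their ratios show.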
